A study of Tetranychus urticae with 4 samples.

Results

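The genes described here encode intradiol ring-cleavage dioxygenases (ID-RCDs) of the two-spotted spider mite Tetranychus urticae. ID-RCDs are iron enzymes that open the aromatic ring of catechol-type compounds between the neighbouring hydroxyl groups. They are best known from bacteria and fungi, where they serve in the breakdown of aromatic compounds, and the mite copies are regarded as genes acquired by horizontal transfer. The role of each single mite copy is not stated here.

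4 genes were chosen, tetur01g00490, tetur07g05930, tetur44g00140 and tetur13g04550, out of 18217 genes on the array. They were picked for their log2 ratios in the comparison reported below, as deep falls, a small fall and a rise, so those ratios are given as a description and without a test. A further 6 ID-RCD genes of the same list were analysed beside them. The study drew that list from its differentially expressed genes on these arrays, so it is no independent evidence of a direction, and it does not hold every ID-RCD gene of the mite. The array files give gene IDs only, and the family name comes from the study's list.

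Total RNA came from whole adult females of the LS-VL strain, pooled within each sample. The diapausing pools held more females than the non-diapausing pools. Larvae of this laboratory strain were raised at 17 °C, 80% relative humidity and 8 h of light to 16 h of darkness until adulthood, and under these shared conditions some females entered diapause, an arrest of reproduction, and others did not. Each of the 4 arrays held the 1 diapausing sample of a biological replicate in Cy5 (red) and the non-diapausing sample in Cy3 (green), so n = 4 throughout. The dyes were not swapped, and dye, pool size and diapause cannot be told apart. Because whole females were used, fewer cells that express a gene and less RNA per cell cannot be told apart either.

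All 4 arrays lay on 1 slide. Between 67.2% and 72.1% of spots were well above background in either channel, no gene spot was saturated, and the arrays' log2 ratios correlated pairwise at r from 0.877 to 0.914. The 6 vitellogenin genes, which encode yolk proteins and check the reproductive state, were lower in diapausing females on every array, as the labels have it. Their median log2 ratio was -9.91, -8.04, -9.22 and -5.44 in replicates 1 to 4, least deep in replicate 4. Of 14986 genes tested, 9.1% were called lower and 9.04% higher in diapausing females, meaning limma's adjusted p under 0.05 and at least a 2-fold difference. The median gene had a log2 ratio of 0.10 and an SD over arrays of 0.17.

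Of the 4 chosen genes, 3 were lower and 1 was higher in diapausing females, each on all 4 arrays. Of all genes tested, 73.7% kept 1 direction over the 4 arrays. The study's list carries the mark up for every one of these genes. This is at odds with the study's own text on the family and, for all but tetur13g04550, with the direction that the dyes in the labels give. The marks, fold changes and p-values of that list repeat, row by row, the first rows of the study's list of cytochrome P450 genes. They therefore say nothing about these genes, tetur13g04550 included. Throughout, a log2 ratio is diapausing over non-diapausing and is the mean over a gene's probes. A signal is the processed fluorescence in arbitrary units, as a geometric mean over those probes, and signals of different genes cannot be set against each other because probes differ in brightness.

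**Figure D1:**
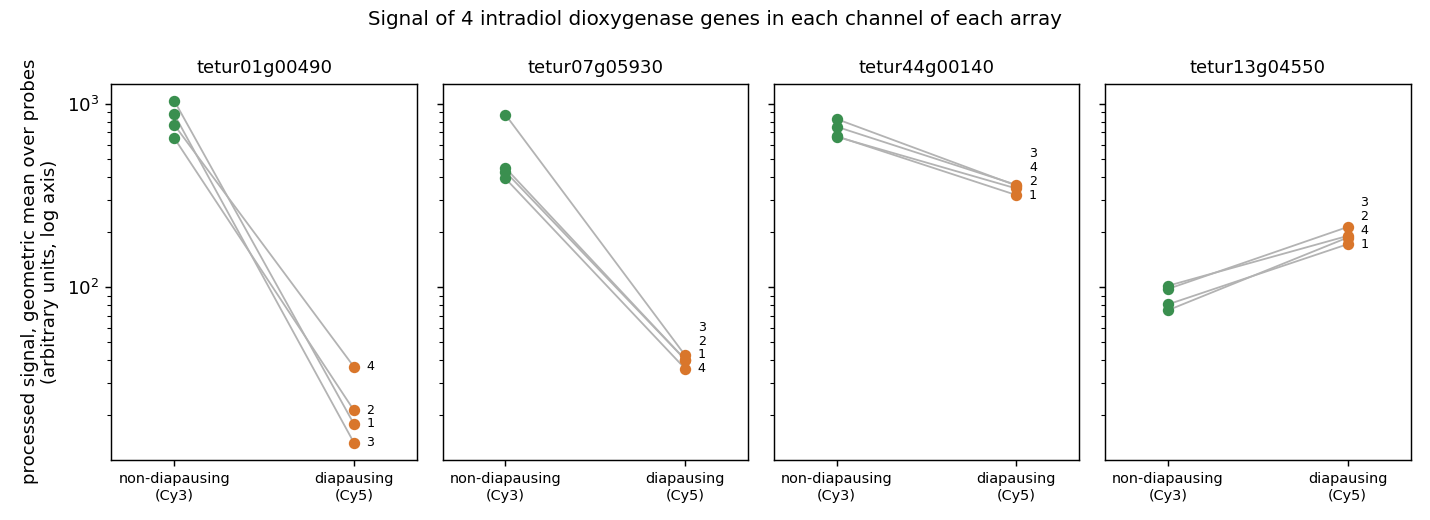
Processed signal (arbitrary units, log axis) of the 4 chosen ID-RCD genes in non-diapausing (Cy3, green) and diapausing (Cy5, orange) females. Each line joins both channels of 1 array and the digits give the replicate; for tetur01g00490 the Cy3 signals lie between 651.5 and 1041 and the Cy5 signals between 14.2 and 36.9, and heights are comparable within a panel only.

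tetur01g00490 had the deepest ratio of the 10 ID-RCD genes in the scanner's own values, a place it lost to tetur04g08620 (-3.51) and tetur07g05940 (-3.03) with normexp correction and loess. Its Cy3 signal in non-diapausing females was 1041, 651.5, 877 and 769 in replicates 1 to 4, and its Cy5 signal in diapausing females was 18.0, 21.3, 14.2 and 36.9. The lowest non-diapausing signal was thus far above the highest diapausing one, in a gene picked for its deep fall. The log2 ratios were -5.85, -4.93, -5.95 and -4.38, with a mean of -5.28 ± 0.75 (SD, n = 4), 38.8-fold lower. Replicates 1 and 3 had the deepest ratios, and replicate 4, with the highest Cy5 signal, the shallowest, as it also was for the vitellogenin genes. In rank, the gene was number 53 from the bottom among the 14986 genes.

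The 3 probes of tetur01g00490, each printed in 2 spots and each listing this gene alone, gave mean log2 ratios of -5.26, -5.34 and -5.24. Their agreement in mean hid different footing in the diapausing channel. Probe 1338 was well above background in Cy5 on all 4 arrays, with Cy5 signals from 52.2 to 153.5 against Cy3 signals from 2313 to 3586. Probe 1337 was above background in Cy5 on 1 array and probe 1336 on none. The ratios of probe 1336, and those of probe 1337 on the other 3 arrays, are therefore uncertain in size. The mean of -5.28 rests in part on them. With the probe that was measured in both channels alone, the mean was -5.24. Across arrays, the 12 pairs of duplicate spots differed by a median of 0.198 on the log2 scale and by up to 1.78. With normexp background correction (offset 50) and loess normalization, changed together, the mean log2 ratio was -2.82, still lower in diapausing females.

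tetur07g05930 was also far lower in diapausing females. Its Cy3 signal was 426.5, 447.6, 873 and 392.1 in replicates 1 to 4, and its Cy5 signal was 40.3, 40.4, 42.6 and 36.0. The diapausing channel was nearly level over arrays, with 4 or 5 of the 6 probes in use well above background there, and the non-diapausing signal of replicate 3 stood 1.95 times above the next highest. The log2 ratios were -3.40, -3.47, -4.36 and -3.45, with a mean of -3.67 ± 0.46 (SD, n = 4), 12.7-fold lower. Without replicate 3 the mean was -3.44. With normexp correction and loess it was -2.09.

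Of the 7 probes of tetur07g05930, 4 list other genes too. The 3 probes that list it alone had a mean log2 ratio of -3.65, from -4.37 to -2.80, and the 3 shared probes in use had a mean of -3.69, from -4.64 to -2.61. Probe 22709, one of the shared ones, was not well above background in Cy5 on any array, so its ratios are uncertain in size. Probe 22521, which lists the gene alone, was well above background in Cy5 on 1 array only. Its ratios on the other arrays are uncertain in size too. The probes measured in both channels on at least 2 arrays gave a mean of -3.61. Both kinds of probe thus covered the same range, and 5 of the 6 probes had their lowest ratio in replicate 3. The remaining probe, 22710, lists tetur07g05930, tetur07g05940 and tetur07g06570, was below background in both channels on all 4 arrays, and was not used. tetur07g05940, the next gene ID on scaffold 7 and itself an ID-RCD gene, shares 2 of the probes in use. Its log2 ratios were -4.10, -3.96, -4.69 and -3.90, so that replicate 3 was again the deepest. Its 1 own probe gave a mean of -4.52.

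**Figure D2:**
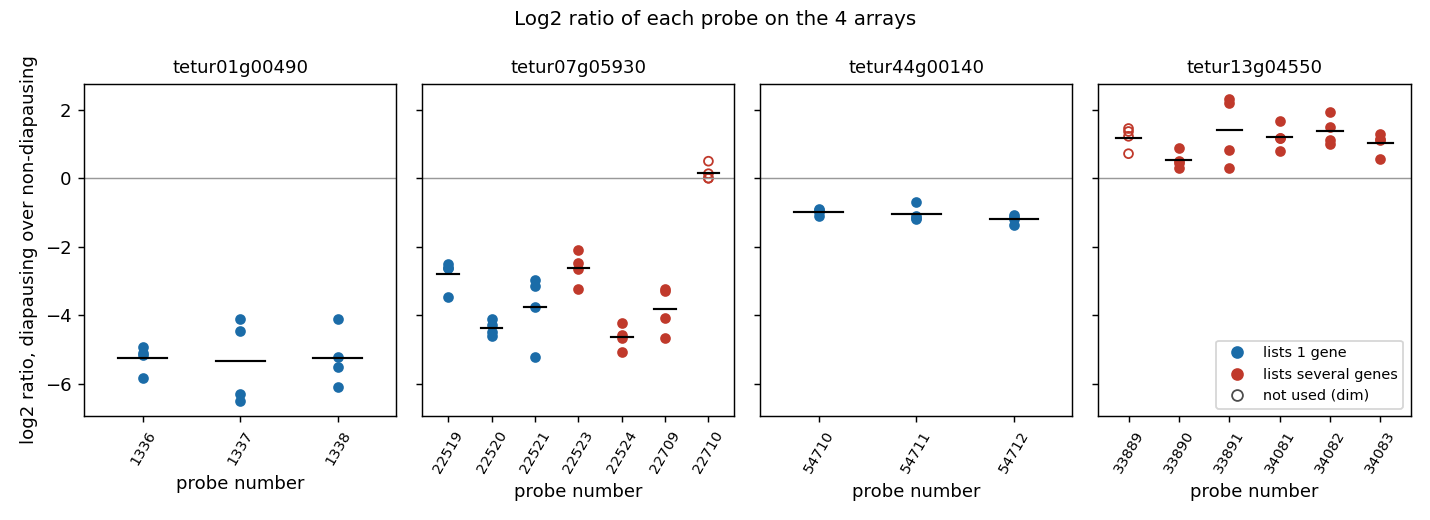
Log2 ratio (diapausing over non-diapausing) of each probe of the 4 chosen genes, 1 point per array, with the mean as a bar. Blue probes list 1 gene, red probes several and open points were too dim to be used; own and shared probes of tetur07g05930 overlap, and all probes of tetur13g04550 are shared.

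tetur44g00140 differed much less, and evenly. Its Cy3 signal was 666, 662, 751 and 827 in replicates 1 to 4, and its Cy5 signal was 318, 346, 362 and 359. The groups did not overlap, in a gene picked for its small fall. How many of all genes separate in this way was not counted. The highest signal over the lowest was 1.25 in Cy3 and 1.14 in Cy5. The log2 ratios were -1.07, -0.94, -1.05 and -1.21, with a mean of -1.07 ± 0.11 (SD, n = 4), 2.09-fold lower. Replicate 2 lay under a 2-fold difference. The 3 probes, which list this gene alone and were well above background in both channels on every array, gave means from -1.18 to -0.98. Being close to 2-fold, the gene fell under that size in 5 of 15 other ways of processing. It was lower in all 15, which are not independent of each other.

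tetur13g04550 was the only chosen gene with a higher signal in diapausing females. Its Cy3 signal was 80.7, 101.9, 98.0 and 75.0 in replicates 1 to 4, and its Cy5 signal was 171.8, 190.7, 213.2 and 186.7. Every diapausing signal was above every non-diapausing one, in a gene picked for its rise. The log2 ratios were 1.09, 0.90, 1.12 and 1.32, with a mean of 1.11 ± 0.17 (SD, n = 4), 2.16-fold higher. Its SD was close to that of the median gene. Of its 5 used probes, only 1 had its lowest ratio in replicate 2, where the gene's value was lowest.

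This value cannot be given to tetur13g04550 alone. All of its 6 probes also list tetur13g03880, another gene ID of scaffold 13, and 5 of them were bright enough to be used. The 2 genes therefore have 1 joint measurement, with the same ratio on each array, and which of them it reports cannot be told apart. Among the 18217 genes, 419 likewise have shared probes only. The 5 probes gave mean log2 ratios from 0.52 to 1.41. The probe with the highest mean, 33891, was not well above background in the non-diapausing channel on any array. Its ratios are therefore uncertain in size, and they ranged from 0.30 to 2.32. The brightest probe alone gave 0.52 and normexp correction with loess 0.49, both higher in diapausing females and both under 2-fold.

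The other 6 listed ID-RCD genes were tested in the same fit. All 6 fell in diapausing females past the threshold, against 9.1% of all genes called lower. Each kept 1 direction over the 4 arrays, as did 73.7% of all genes. Over the 10 listed genes, 9 were lower and 1 was higher, and the median log2 ratio was -3.23, beside 0.10 for all genes. The list was drawn from genes that differed on these arrays, so its count is a property of its choice. For the same reason the adjusted p-values of its genes are no independent evidence. The depth of the fall is described gene by gene below.

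**Figure D3:**
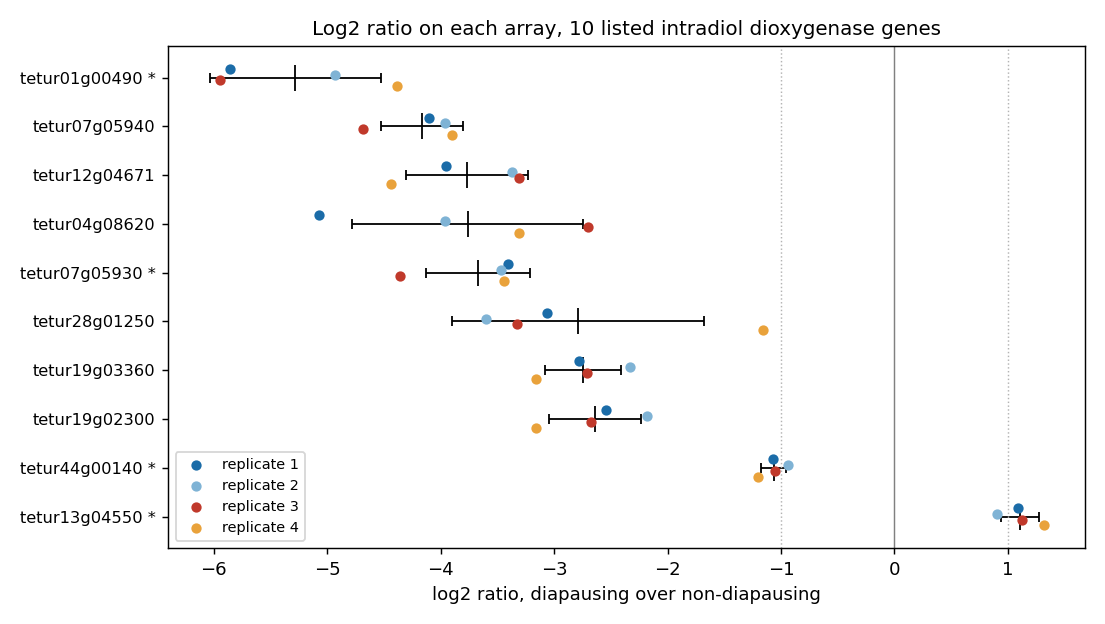
Log2 ratio (diapausing over non-diapausing) of the 10 listed ID-RCD genes on each array, coloured by replicate, with the mean (bar) and SD (whiskers, n = 4). Asterisks mark the 4 chosen genes and dotted lines a 2-fold difference; 9 genes lie below 0 on every array and tetur13g04550 above 0, and no single replicate is the deepest for all.

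tetur07g05940 had a mean log2 ratio of -4.16 ± 0.36 (SD, n = 4; limma adjusted p 7.48e-05), 17.9-fold lower. As 4 of its 5 array probes list other genes, its value is not independent of that of tetur07g05930. tetur12g04671 had a mean of -3.77 ± 0.53 (adjusted p 0.000201), with Cy3 signals from 174.6 to 287.9 and Cy5 signals from 10.74 to 26.4. Its Cy5 signal was well above background in 1 probe each on 2 of the 4 arrays, both times in probe 32691. Its other ratios, those of 2 probes on all arrays included, are uncertain in size. Probe 32691 alone gave -3.39, and with normexp correction the mean was -1.49 after loess and -1.44 after median centring, still called lower.

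tetur04g08620 and tetur28g01250 varied most among the listed genes. The log2 ratios of tetur04g08620 were -5.07, -3.96, -2.70 and -3.31 in replicates 1 to 4 (mean -3.76 ± 1.02, SD, n = 4; limma adjusted p 0.00106). Its Cy3 signal stayed within 7679 to 10310, whereas its Cy5 signal ran from 306.0 in replicate 1 to 1289 in replicate 3. The spread of this gene lay in the diapausing females' channel. tetur28g01250 had log2 ratios of -3.07, -3.60, -3.32 and -1.15 (mean -2.79 ± 1.11, SD, n = 4; limma adjusted p 0.00367). Its Cy5 signal in replicate 4 was 928.3, against 232.4 to 346.8 on the other arrays, and without replicate 4 the mean was -3.33. This was the one listed gene outside the chosen 4 to lose its call, when a fall beyond 2-fold was itself tested with limma's treat.

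tetur19g03360 and tetur19g02300 lie on scaffold 19 and share 1 probe. Their mean log2 ratios were -2.74 ± 0.34 (SD, n = 4; limma adjusted p 0.000163) and -2.64 ± 0.41 (SD, n = 4; limma adjusted p 0.000266). For both, replicate 4 was the deepest and replicate 2 the shallowest. The probes that list only tetur19g03360 averaged -2.74 and those that list only tetur19g02300 averaged -2.57, beside -2.77 for the shared probe. The order of the arrays was therefore not set by the shared probe alone: all 4 probes of tetur19g03360 and all 3 of tetur19g02300 were lowest in replicate 4.

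In the order of the means from the scanner's ratios, tetur01g00490 came lowest, with values on single arrays that reached those of the next genes. It was followed by tetur07g05940, tetur12g04671, tetur04g08620 and tetur07g05930, whose means lay between -4.16 and -3.67 and whose values on single arrays overlapped. tetur28g01250, tetur19g03360 and tetur19g02300 came next and overlapped with each other and, on single arrays, with genes of the group before them. tetur44g00140 lay apart from these except for the value of tetur28g01250 in replicate 4. The order was not the same after normexp correction and loess, where tetur04g08620 came lowest at -3.51, before tetur07g05940 at -3.03 and tetur01g00490 at -2.82, and tetur12g04671 moved to -1.49, above tetur28g01250, tetur19g03360 and tetur19g02300. Differences between genes were not tested.

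The 9 lower genes did not follow 1 array. The deepest ratio was in replicate 1 for 1 gene, in replicate 2 for 1, in replicate 3 for 3 and in replicate 4 for 4, and the shallowest was in replicate 4 for 3 genes. In the processed signals the spread over arrays was larger in the Cy5 channel for 4 of them and in the Cy3 channel for 5. After normexp correction, loess and Aquantile normalization it was larger in Cy5 for 2 and in Cy3 for 7. For tetur01g00490 the SD of the log2 signal was 0.585 in Cy5 and 0.287 in Cy3 in the processed signals, and the order turned to 0.132 and 0.213 after that normalization. For tetur07g05930 it was 0.102 in Cy5 and 0.531 in Cy3, and 0.0717 and 0.456 after it. The part of the scanner's background and of dye normalization in these spreads was not tested.

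Genes next to the chosen ones on their scaffolds were read from the gene IDs, taking up to 2 IDs on either side. Outside the family there were 15 such neighbours, of which 10 had a value and 5 were too dim. Of the 10, 1 rose, 1 fell and 8 did not pass the threshold, shares near the 9.04% higher and 9.1% lower of all genes. The gene that rose was tetur01g00500, next to tetur01g00490, with a mean log2 ratio of 1.98 ± 0.16 (SD, n = 4; limma adjusted p 9.99e-05). The gene on the other side of tetur01g00490, tetur01g00480, had 0.55 ± 0.34. Each of these 2 values rests on 1 of 3 probes, the others being too dim. The gene that fell was tetur44g00130, next to tetur44g00140, with -1.04 ± 0.18 (SD, n = 4; limma adjusted p 0.000585). The neighbours of tetur13g04550 were too dim in 3 of 4 cases.

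Genes with the most similar pattern were sought by the root mean square distance between log2 ratios over the 4 arrays, leaving out genes that share a probe. tetur01g00490 had few near it: 3 of 14985 genes lay within 0.50. The nearest were tetur23g00890, listed by the study among the cathepsin L-like cysteine peptidases, at a distance of 0.313, and tetur03g09490 at 0.340. tetur07g05930 had 30 genes within that distance, the nearest being tetur14g03430 (0.249) and tetur17g02390 (0.284). Around tetur44g00140 there were 1351 genes, led by tetur09g05260 (0.0443) and tetur02g05830 (0.0665). Around tetur13g04550 there were 1718, led by tetur11g05990 (0.0633), listed among the ABCC transporters, and tetur08g07340 (0.0706). This distance takes in the size of the ratio, for which the 4 genes were picked. Few genes near a deep ratio and many near a small one follow from that choice, and are no result about a shared pattern. These distances describe 4 arrays and carry no test.

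**Figure D4:**
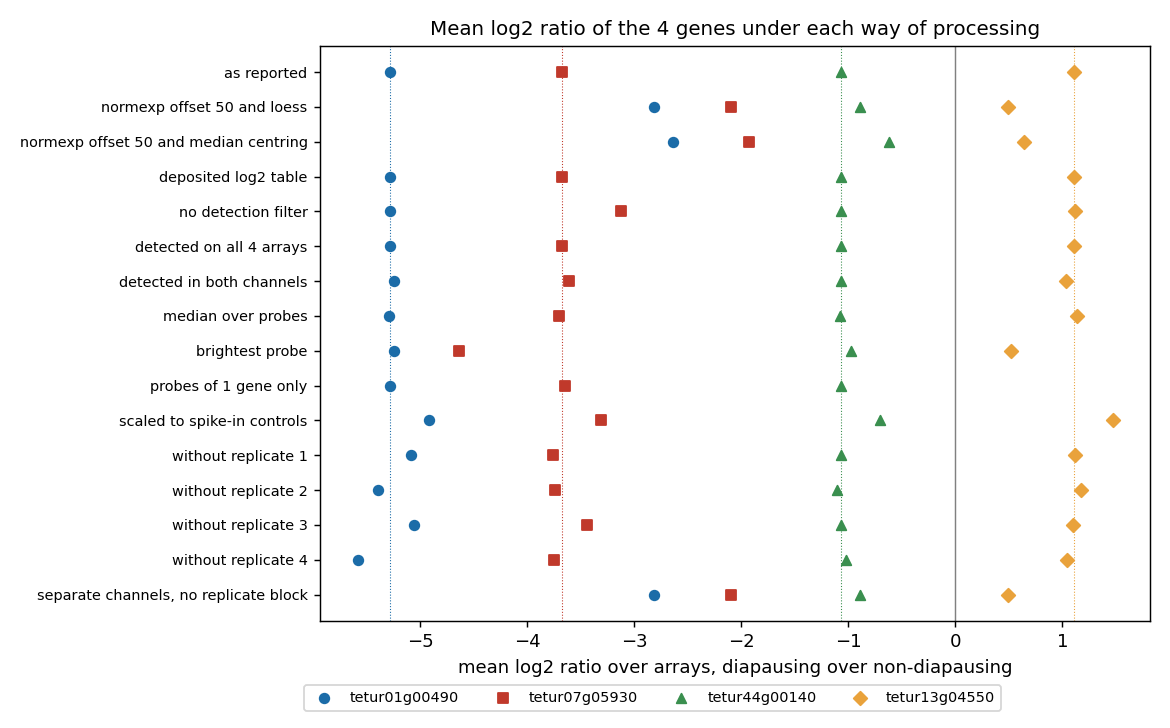
Mean log2 ratio of the 4 chosen genes as reported and under each other way of processing, with dotted lines at the reported values. Every gene stays on its side of 0, and the deep values of tetur01g00490 and tetur07g05930 shrink to -2.82 and -2.09 after normexp correction and loess; tetur13g04550 has no value from probes that list 1 gene.

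The sign of each of the 4 genes was the same under all ways of processing in that plot, and the size was not. Leaving out an array could not change the sign, which was the same on all 4 arrays. Normexp correction was run with a chosen offset of 50 added to both channels. With it and loess, the ratio of tetur01g00490 went from -5.28 to -2.82 and that of tetur07g05930 from -3.67 to -2.09. The highest processed Cy5 signals of these genes, 36.9 and 42.6, were smaller than the offset. The part of the offset in the change was not tested. Scaling each array to its spike-in RNAs shifts every gene of that array by the same amount. It moved the median of all genes from 0.10 to 0.47. By the same step the ratios became -4.92, -3.31, -0.70 and 1.47 for tetur01g00490, tetur07g05930, tetur44g00140 and tetur13g04550.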

How the data were processed

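The 4 arrays were Agilent two-colour arrays scanned and quantified by the authors with Feature Extraction (version 10.7.1.1 in the file headers). The deposited scanner tables give intensity values per spot in each channel, background-corrected and dye-normalized processed signals, and the log10 ratio of Cy5 over Cy3. Deposited flags mark whether a spot was well above background, non-uniform or an outlier. The authors' deposited series table holds log2 ratios of the same arrays.

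The log10 ratio was turned into log2. Control and marked spots were left out, and probes entered if 1 channel or both stood well above background on 2 or more arrays. Probes were averaged per gene, probes that list several genes counting for each. Gene means were tested against 0 with limma 3.58.1 in R 4.3.3 (lmFit, eBayes) with Benjamini-Hochberg adjustment over 14986 genes. Called genes had adjusted p under 0.05 and at least 2-fold difference. The code was tested on simulated ratios. The number of arrays, 4, limits the precision.

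The members and the lists were chosen with earlier results of these data known. Named are the 4 genes, the study's ID-RCD list, the 2 nearest genes by pattern, the neighbours by ID, and 3 genes that share probes with members, chosen after their values were seen. Alternatives were other background corrections, normalizations, filters, probe summaries and scalings, array row as a covariate, leaving out arrays, separate channels and limma's treat. Breakdown enzymes of aromatic amino acids were not analysed here, since no table used here pairs their names with the gene IDs, and no sequences were used here.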

Additional observations from a re-analysis of the deposited data

Results flagged for a closer look

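Among the 10 listed ID-RCD genes, the log2 ratio of tetur07g05930 in replicate 3 lay apart from the other arrays by Dixon's criterion for 4 samples. It was -4.36, whereas the others lay between -3.47 and -3.40. The non-diapausing signal of that array was 873 against at most 447.6 on the others, and the diapausing signal was 42.6; the others were between 36.0 and 40.4. Chance marks about 1 in 20 groups of samples in this way. tetur07g05940, which shares 2 used probes with it, had its deepest ratio on the same array, -4.69.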

How the results depend on the processing

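Over 15 alternatives (14 for tetur13g04550, whose shared probes leave no value from probes of 1 gene), none turned the direction of a chosen gene. Several could not have turned it. Each gene had 1 sign on all 4 arrays, so leaving out an array keeps it, and the deposited table gave the same means. With normexp and loess the log2 ratios of tetur01g00490, tetur07g05930, tetur44g00140 and tetur13g04550 were -2.82, -2.09, -0.89 and 0.49. With normexp and median centring they were -2.63, -1.93, -0.62 and 0.64. Comparing separate channels with no replicate block gave the loess values, since Aquantile leaves ratios unchanged, and within-array channel deviations correlated at -0.0453, 0.262, 0.137 and 0.0618 in replicates 1 to 4. Without the detection filter tetur07g05930 was at -3.12, and its brightest probe was at -4.64, against 0.52 for that of tetur13g04550. Spike-in scaling gave -0.70 for tetur44g00140 and 1.47 for tetur13g04550. Leaving out each array in turn gave -5.58 to -5.06 for tetur01g00490, -3.76 to -3.44 for tetur07g05930, -1.11 to -1.02 for tetur44g00140 and 1.04 to 1.18 for tetur13g04550. Of 102 values of the other 6 genes, 101 kept call and direction. The ID-RCD genes called numbered 10, and 7 to 9 under treat, both normexp settings, the brightest probe, separate channels, own probes only and spike-in scaling. Of all genes, 9.1% were called lower and 9.04% higher in the reported processing. The 4 chosen genes and the list were picked on these arrays, so these counts are no evidence about the family.

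All genes called numbered 2719 (50.2% lower), 1141 with loess (70.5% lower) and with separate channels, 1247 with median centring, 1163 with treat (60.9% lower), and 2619 to 2735 leaving out an array. Spike-in scaling gave 912 lower and 2788 higher (24.6% lower). The causes were not tested. The list of aromatic amino acid breakdown enzymes was not run. Signals near background in Cy5 limit the depth of tetur01g00490 and tetur12g04671, and, through probes 22709 and 22521, in part that of tetur07g05930.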

Other observations

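Genes that share probes with the chosen ones, named after their values were seen, differed among themselves. tetur07g06560 had a mean log2 ratio of -4.44 ± 0.49 (SD, n = 4; limma adjusted p 0.000113), and all 3 of its probes in use also list tetur07g05930 or tetur07g05940. tetur07g06570 shares only the dim probe 22710 with tetur07g05930, and its 1 own probe in use gave 0.06 ± 0.53 (SD, n = 4; limma adjusted p 0.82). The ratio of tetur13g03880 is that of tetur13g04550, since every probe lists both. The probe of tetur13g04550 that was too dim to be used, 33889, had a mean log2 ratio of 1.19, within the range of the 5 used ones.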
